A study of Homo sapiens with 6 samples.

Results

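The cytosolic ribosomal protein genes were examined in K562 cells that received a microRNA mimic together with imatinib. The genes were taken by symbol from the table of estimated counts per gene: RPLP0, RPLP1, RPLP2, RPSA, and every symbol made of RPL or RPS, digits and at most one of the letters A, X or L. This gave 81 of the 35615 symbols, 32 for the small subunit and 49 for the large, and left out pseudogenes and the RPS6K kinases. K562 is an established human line of erythroid character, grown from the blast phase of chronic myeloid leukaemia and driven by BCR-ABL1, the kinase that imatinib blocks. The miR92a group (genotype label miR-92a overexpression) was nucleofected with 500 pmol of a synthetic hsa-miR-92a-1-5p mimic per 5 M cells. The scramble group (genotype label Control) received a negative-control mimic in the same way. Imatinib was added to both groups at 1 µM, 4 h after the mimic, and the cells were harvested for RNA after a further 24 h. Each group had 3 libraries labelled as biological replicates; all came from this single line, and cells without imatinib were not analysed here. The labelled cell type, myeloblast, was set against marker genes. All 10 erythroid markers passed the filter on low counts, with summed levels of 9704 to 17919 CPM in miR92a libraries and 11871 to 18964 CPM in scramble libraries, whereas the myeloblast markers MPO and CTSG were at 0 in all 6 libraries. Of the other markers, 5 of 8 myeloblast and granulocyte, 3 of 5 lymphoid and 3 of 5 stromal genes also passed the filter. The summed level of all 8 myeloblast and granulocyte markers was 17.03 to 25.6 CPM in miR92a and 26.3 to 28.3 CPM in scramble. Lymphoid markers summed to 5.68 to 7.80 CPM in miR92a and 7.68 to 7.80 CPM in scramble, and stromal markers to 2.38 to 3.27 CPM and 3.31 to 6.54 CPM.

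The cytosolic ribosome joins a small subunit, which reads the mRNA, to a large subunit, which forms the peptide bond, and each holds a fixed set of proteins in about equal copy number. Most ribosomal protein mRNAs begin with a terminal oligopyrimidine (TOP) tract, a C followed by a run of pyrimidines, through which LARP1 and the mTORC1 kinase control their translation as a group. Erythroid precursors are sensitive to shortage of these proteins: loss of a single copy of several ribosomal protein genes causes Diamond-Blackfan anaemia, a failure of red cell production.

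The added strand and its partner from the same hairpin are shown first because the seed, bases 2 to 8 in capitals, sets which mRNA sites a microRNA pairs with. The sequences are RefSeq entries (GRCh38.p14).
hsa-miR-92a-1-5p (chr13:91351324-91351346, plus strand): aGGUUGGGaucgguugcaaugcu
hsa-miR-92a-3p (chr13:91351361-91351382, plus strand): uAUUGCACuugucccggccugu
The strands have different seeds, so sites for the mimic are not sites for miR-92a-3p, the strand that usually accumulates.

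The RNA starts of the genes that the results turn on are given next, as 30 bases with 15 before and 15 from the annotated RefSeq start. Capitals mark a TOP-like run, a C followed by at least 4 pyrimidines in the direction of transcription, where one begins at the start itself. The first 6 hold it and the next 3 do not. EEF1A1, a translation elongation factor with a TOP mRNA, is added for comparison.
RPL29 (chr3:51995881-51995910, minus strand): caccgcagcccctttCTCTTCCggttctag
RPL22 (chr1:6199581-6199610, minus strand): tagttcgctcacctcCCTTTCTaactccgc
RPLP0 (chr12:120201097-120201126, minus strand): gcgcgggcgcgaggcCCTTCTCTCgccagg
RPL13 (chr16:89560667-89560696, plus strand): ttgcggggccgcttcCTTTCCgctcggctg
RPS9 (chr19:54200843-54200872, plus strand): gtggcgcttccgcgcCTCTTTCTCagtgac
RPS12 (chr6:132814554-132814583, plus strand): gcgtgcggatgaggcCTCTTTCCCTgccgc
RPL15 (chr3:23917117-23917146, plus strand): cccaaaaggcattgtgggagtacagctctt
RPS15 (chr19:1438381-1438410, plus strand): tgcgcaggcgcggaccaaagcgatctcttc
RPS27L (chr15:63157463-63157492, minus strand): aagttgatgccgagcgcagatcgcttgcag
EEF1A1 (chr6:73521018-73521047, minus strand): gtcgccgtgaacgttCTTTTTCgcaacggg
Of the 64 ribosomal protein genes with an entry in the promoter table, 46 (71.9%) had such a run at the annotated start. The share was 5.14% of the 27305 genes in that table and 7.34% of the 10265 tested genes with an entry. Within 10 bases of the start the numbers were 57 (89.1%), against 38.4% of the table and 42.3% of the tested genes. RPL15 and RPS15, the members with the highest levels in miR92a relative to scramble among well-counted genes, had no run at the annotated base. That says only that the letters are not in these windows at that position. Both windows end in such a run, downstream of the annotated start.

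Library totals were 0.704, 25.98 and 25.63 M counts in miR92a 1, 2 and 3 and 25.39, 25.40 and 24.75 M in scramble 1, 2 and 3. The ribosomal protein genes are so abundant that they stayed measurable in the shallow library miR92a 1: their median count there was 411, for a counting error of 4.93%, and 16088.5 to 17020.0 in the other libraries. Of the 81 genes 80 passed the filter on low counts and were tested among 14543 genes. RPL10L, a retrogene copy of RPL10 expressed in testis, did not, with 0 or 1 counts per library. Of the tested genes, only RPL39L, RPL3L and RPS27 had fewer than 10 counts in miR92a 1.

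No ribosomal protein gene passed the test between miR92a and scramble. With edgeR's quasi-likelihood test on group alone and Benjamini-Hochberg adjustment over all tested genes at 0.05, 0 of the 80 were called higher and 0 lower, while 1.41% of all tested genes (205 of 14543) were called. The lowest adjusted p among the 80 was 0.22. At an unadjusted p under 0.05 there were 2 (2.5%), RPL15 higher and RPL29 lower, against 13.5% of all tested genes. DESeq2 called 0 of the 80 (2.67% of all tested genes) and limma-voom called 0 (1.89% of all). The median log2 fold change, miR92a over scramble, was -0.03 over the ribosomal protein genes with quartiles of -0.09 and 0.01, against a median of -0.01 and quartiles of -0.21 and 0.16 over all tested genes. The sign was positive in 25 and negative in 55. Without the shallow library miR92a 1 the median of the ribosomal protein genes was 0.03, so its sign rests on that library, and without miR92a 3 it was -0.11. With all libraries thinned to the depth of miR92a 1 it was -0.03.

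The intervals say how large a change could have gone undetected. The 95% interval of the log2 fold change lay within a 1.5-fold change in either direction for 76 of the 80 genes, and within a 1.25-fold change for 48. The 4 genes whose interval reached beyond 1.5-fold were RPS9, which varied most between libraries, and the low-count genes RPL39L, RPL3L and RPS27. The plot of fold changes shows each gene with its interval.

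**Figure D1:**
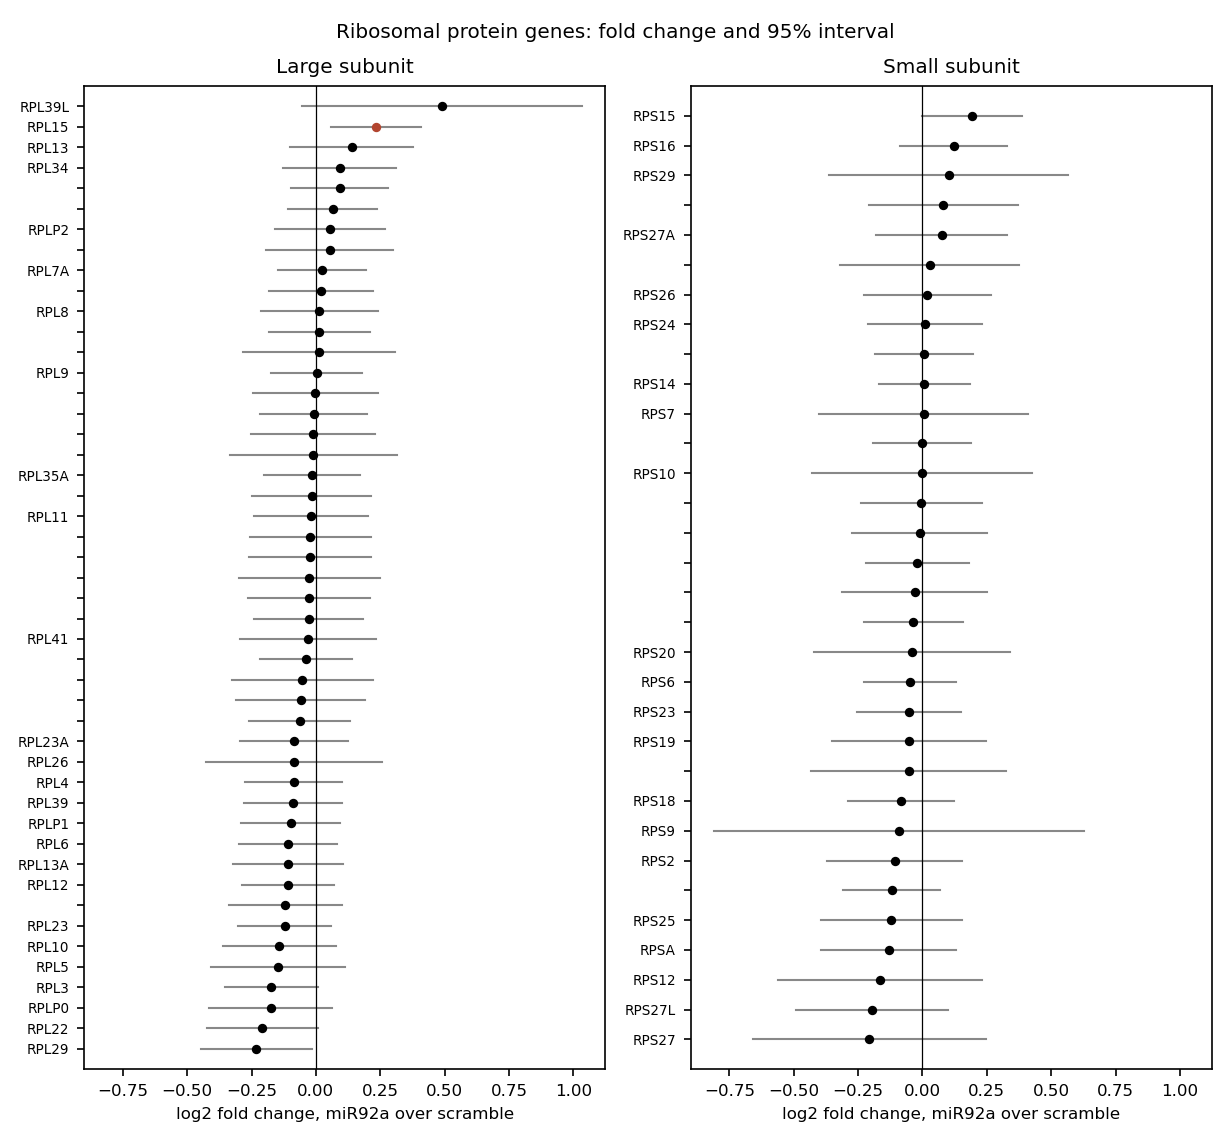
Log2 fold change of each ribosomal protein gene, miR92a over scramble (x axis), with the 95% interval from edgeR's quasi-likelihood fit on group alone, 3 libraries per group; large subunit left, small subunit right, sorted by value. Points lie close to 0 and nearly all intervals cross it; the red point, RPL15, is the gene called when the replicate number is a block, and RPL3L (interval -1.23 to 0.89) is not drawn; genes named in the text carry a label.

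Libraries of the same replicate number deviated together from their group means, so the genes were also fitted with a block for replicate number. It called 1 of the 80 (1.25%), RPL15, as higher and 0 as lower, against 11.3% of all tested genes (1639 of 14543). At an unadjusted p under 0.05 it gave 3 higher and 5 lower (10.0%), against 24% of all tested genes. Its 95% intervals lay within 1.5-fold for 78 genes and within 1.25-fold for 68.

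Pair by pair, the ribosomal protein genes as a whole sat low in miR92a 1, near even in miR92a 2 and slightly high in miR92a 3. In miR92a 1, 9 were higher and 71 lower than in scramble 1, with a median log2 difference of -0.16, against -0.07 over all tested genes. In miR92a 2, 31 were higher and 49 lower than in scramble 2, with a median of -0.03, against 0.0017 over all tested genes. In miR92a 3, 55 were higher and 25 lower than in scramble 3, with a median of 0.04, against -0.013 over all tested genes. Only 21 of the 80 (26.25%) had the same sign in all 3 pairs, 6 higher and 15 lower, against 44.4% of all tested genes.

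**Figure D2:**
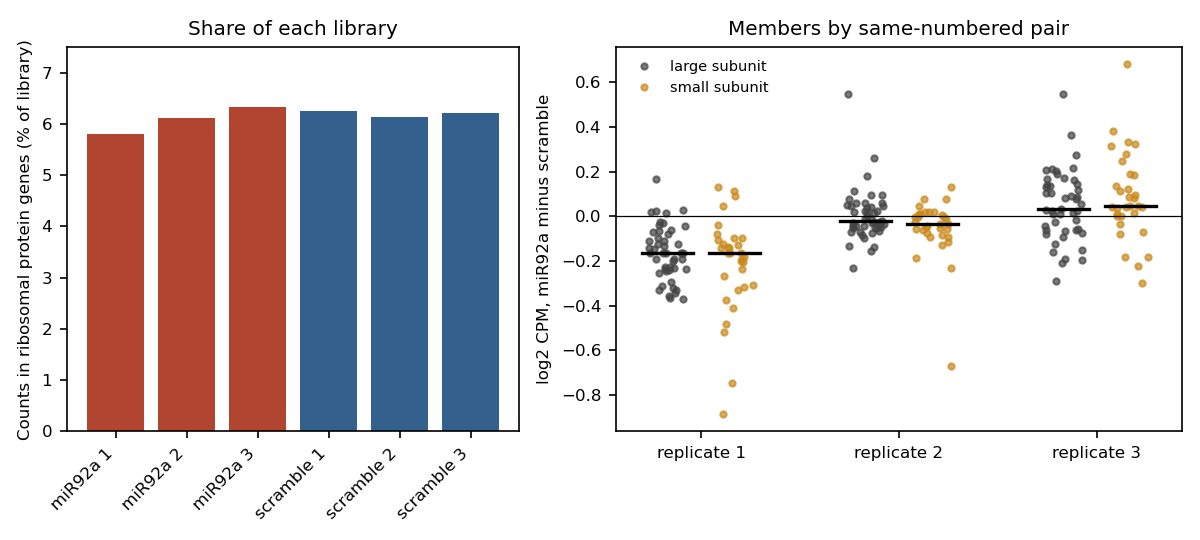
Left, counts in ribosomal protein genes as a percentage of each library's counts, one bar per library, miR92a left of scramble; the bars lie between 5.80% and 6.32%. Right, log2 CPM difference (miR92a minus scramble) of each gene within each same-numbered pair, large subunit grey and small subunit ochre, with the median as a line and RPL3L not drawn; the points lie mostly below 0 in replicate 1 and mostly above it in replicate 3.

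As a share of all counts the ribosomal protein genes together held 5.80%, 6.11% and 6.32% in miR92a 1, 2 and 3, against 6.26%, 6.14% and 6.22% in scramble 1, 2 and 3. Counting error alone gave 95% intervals (Wilson) of 5.74% to 5.85% in miR92a 1, and narrower ones in the deeper libraries. The mean was 6.08% ± 0.265 in miR92a and 6.20% ± 0.0611 in scramble (SD, n = 3 each). The groups overlapped, and the log2 difference of -0.03 had a two-sided exact permutation p of 0.6, where 3 against 3 libraries cannot go below 0.1. The lowest and the highest share both belonged to miR92a libraries, and without miR92a 1 the difference was 0.0029. The small subunit genes held 2.18% ± 0.155 in miR92a and 2.22% ± 0.0473 in scramble, and the large subunit genes 3.90% ± 0.125 and 3.98% ± 0.0419 (SD, n = 3 each). The ratio of small to large subunit counts was 0.559 ± 0.0276 in miR92a and 0.559 ± 0.0137 in scramble (SD, n = 3 each), so the balance between the subunits did not move with the mimic by more than its spread. These are shares of bulk RNA, in which fewer cells of a type and less RNA per cell cannot be told apart.

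RPL15, a large subunit protein (chr3:23916545-23924374, plus strand, GRCh38), had the clearest separation. It had 657, 691 and 668 CPM in miR92a 1, 2 and 3, against 585, 577 and 552 CPM in scramble 1, 2 and 3. All miR92a libraries lay above all scramble libraries, and the spread within each group was small, with 672 ± 17.1 CPM in miR92a and 571 ± 17 CPM in scramble (SD, n = 3 each). The log2 fold change was 0.23 ± 0.08 (SE) with an adjusted p of 0.22 in the edgeR fit on group alone. With the replicate block it was 0.24 ± 0.07 with an adjusted p of 0.041. Over the other fits tried, the adjusted p lay between 0.012 and 0.58 and the log2 fold change between 0.21 and 0.31. The blocked call was lost when both replicate 1 libraries (adjusted p = 0.10) or both replicate 2 libraries (adjusted p = 0.41) were left out.

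At the other end, RPL29, a large subunit protein also known to bind heparin (chr3:51993522-51995942, minus strand, GRCh38), had 378, 419 and 461 CPM in miR92a 1, 2 and 3, against 479, 491 and 516 CPM in scramble 1, 2 and 3. Every miR92a value was below every scramble value. The log2 fold change was -0.23 ± 0.09 (SE) with an edgeR adjusted p of 0.33, and 0.051 with the replicate block, which did not pass. Over the other fits tried, the adjusted p lay between 0.0021 and 0.67 and the log2 fold change between -0.30 and -0.17. RPL22, an RNA-binding protein deleted or mutated in some leukaemias, had 609.5, 714 and 679 CPM in miR92a 1, 2 and 3, against 765, 727 and 830.0 CPM in scramble 1, 2 and 3. Its groups also did not overlap, and the log2 fold change was -0.21 ± 0.09 (adjusted p = 0.39, edgeR). RPL3, which lies near the peptidyl transferase centre, had 1434, 1526 and 1558 CPM in miR92a 1, 2 and 3, against 1688, 1677 and 1732 CPM in scramble 1, 2 and 3. Here too the groups were apart, by a log2 fold change of -0.17 ± 0.08 (adjusted p = 0.39, edgeR).

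Groups that did not overlap were found for 9 of the 80 genes (11.25%), against 21.2% of all tested genes. The 2 with higher miR92a levels were RPL15 and RPS15, and the 7 with lower were RPL12, RPL22, RPL23, RPL29, RPL3, RPL6 and RPLP1. The share is below that of all genes, so separation of this kind was not more frequent among ribosomal protein genes than elsewhere.

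**Figure D3:**
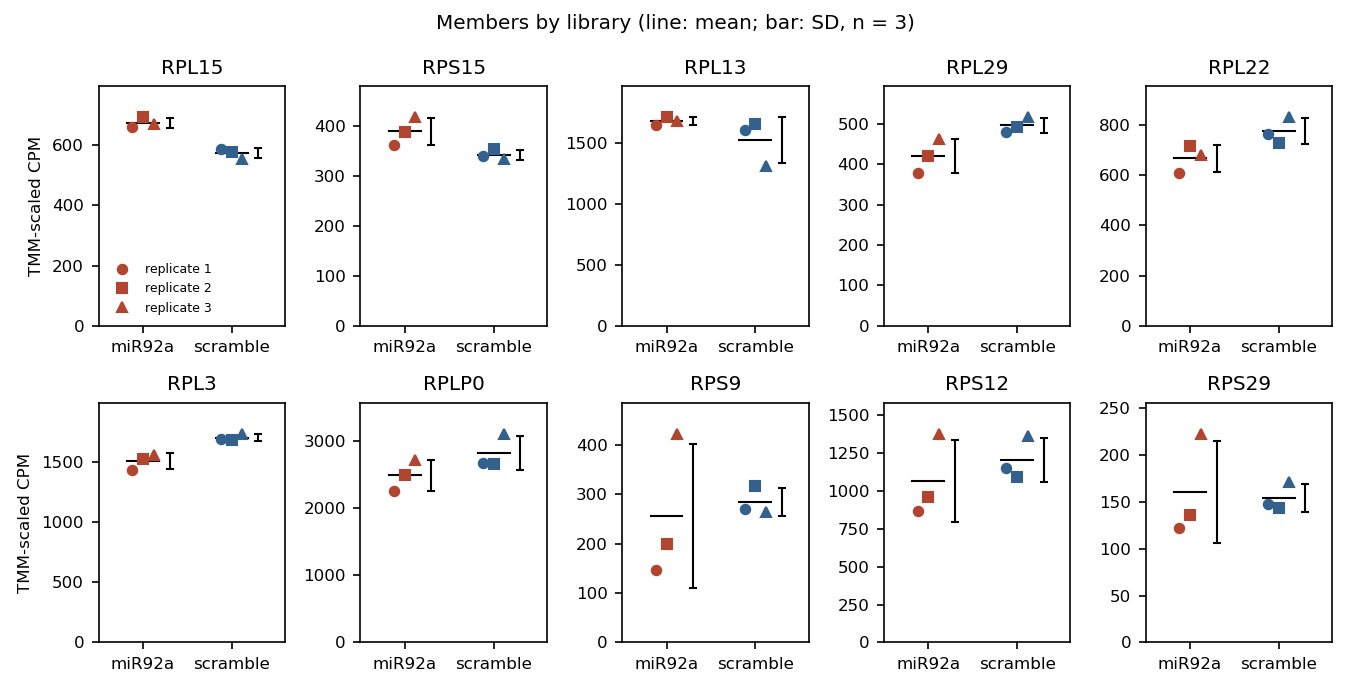
TMM-scaled CPM of 10 ribosomal protein genes in each library (points, shape by replicate number), miR92a left of scramble, with the group mean (line) and SD (bar, n = 3); axes start at 0. RPL15 and RPS15 lie higher in every miR92a library, RPL29, RPL22 and RPL3 lower, and RPLP0 and RPL13 overlap. In RPS9, RPS12 and RPS29 the library miR92a 3 stands above the other miR92a libraries. In RPS12 and RPS29 scramble 3 also stands above the other scramble libraries.

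The stalk proteins, which recruit the elongation factors to the large subunit, did not pass the test. RPLP0, the base of the stalk and the most abundant ribosomal protein gene in CPM, had 2259.8, 2492 and 2719 CPM in miR92a 1, 2 and 3, against 2675, 2664 and 3106 CPM in scramble 1, 2 and 3. It was lower in miR92a within each pair, but the groups overlapped, and the log2 fold change was -0.18 ± 0.10 (adjusted p = 0.54, edgeR). It was -0.11 without miR92a 1 and -0.098 without scramble 3. RPLP1 averaged 961 ± 66.9 CPM in miR92a and 1031 ± 20.2 CPM in scramble (SD, n = 3 each). RPLP2 averaged 731 ± 71 CPM in miR92a and 706 ± 24.7 CPM in scramble (SD, n = 3 each). RPL5 and RPL11 form a particle with 5S rRNA that binds the p53 regulator MDM2. RPL5 averaged 1077 ± 153 CPM in miR92a and 1195 ± 68.1 CPM in scramble (SD, n = 3 each). RPL11 averaged 767 ± 53.9 CPM in miR92a and 779.6 ± 66.2 CPM in scramble (SD, n = 3 each). RPL23, another MDM2-binding protein, averaged 744 ± 34.4 CPM in miR92a and 810.1 ± 18.3 CPM in scramble (SD, n = 3 each). MDM2 itself had a log2 fold change of -0.21 ± 0.11 (adjusted p = 0.43, edgeR), and its partner MDM4 one of 0.16 ± 0.10 (adjusted p = 0.57, edgeR). CDKN1A, a p53 target, was at 0.48 ± 0.26 (adjusted p = 0.49, edgeR), so none of these passed.

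The other large subunit genes described here did not pass the test either. RPL7A, a protein of the large subunit, had 1569, 1574 and 1612 CPM in miR92a 1, 2 and 3, against 1551, 1554 and 1576 CPM in scramble 1, 2 and 3, a 1.04-fold range over all 6 libraries. RPL13 had 1641, 1707 and 1678 CPM in miR92a 1, 2 and 3, against 1607, 1653 and 1306 CPM in scramble 1, 2 and 3. It was lowest in scramble 3 and near level in the other libraries, and its log2 fold change was 0.14 ± 0.10 (adjusted p = 0.65, edgeR), or 0.040 without scramble 3. RPL13A, also part of a translational silencing complex in interferon-treated cells, averaged 2051 ± 161 CPM in miR92a and 2212 ± 132 CPM in scramble (SD, n = 3 each). RPL4, which lines the peptide exit tunnel, averaged 1858 ± 97.1 CPM in miR92a and 1975 ± 72 CPM in scramble (SD, n = 3 each). RPL8, at the peptidyl transferase centre, averaged 1711 ± 89.3 CPM in miR92a and 1695 ± 173 CPM in scramble (SD, n = 3 each). The 8 tunnel and exit genes had a median log2 fold change of -0.05. They had 0 calls on group alone, where 1.41% of all tested genes were called, and 0 with the block, where 11.3% were. RPL34, among the 6 well-counted genes with the highest fold changes, was at 0.09 ± 0.10 (adjusted p = 0.76, edgeR), and between 0.034 (without miR92a 3) and 0.15 (without scramble 3) with a library left out.

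In the small subunit, RPS15, a protein of the subunit's head near the decoding site, had the highest fold change. It had 362, 388 and 418 CPM in miR92a 1, 2 and 3, against 339.5, 354 and 334 CPM in scramble 1, 2 and 3. All miR92a libraries were above all scramble libraries, with a log2 fold change of 0.19 ± 0.09 and an edgeR adjusted p of 0.37. RPS16, beside the transfer RNA sites, had 479, 438 and 527 CPM in miR92a 1, 2 and 3, against 442, 443 and 443 CPM in scramble 1, 2 and 3, which overlapped. The scramble values of RPS16 were almost identical, so the overlap came from miR92a 2. The ubiquitin fusion gene RPS27A averaged 922 ± 127 CPM in miR92a and 879 ± 49.4 CPM in scramble (SD, n = 3 each).

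RPS9, which binds near the mRNA entry of the small subunit (chr19:54200742-54249003, plus strand, GRCh38), had the widest range of all well-counted members and was picked after its values were seen. It had 147, 199 and 423 CPM in miR92a 1, 2 and 3, against 271, 317 and 264 CPM in scramble 1, 2 and 3. Both the lowest values and the single highest value were in miR92a libraries, a 2.88-fold range, and the log2 fold change was -0.09 ± 0.31 (adjusted p = 0.95, edgeR). Within pairs the log2 difference was -0.88 in replicate 1, -0.67 in replicate 2 and 0.68 in replicate 3. RPS12, known from fly studies of cell competition, had 867, 959 and 1379 CPM in miR92a 1, 2 and 3, against 1152, 1092 and 1367 CPM in scramble 1, 2 and 3. RPS29, a zinc-binding protein, had 122, 136 and 223 CPM in miR92a 1, 2 and 3, against 148, 144 and 171 CPM in scramble 1, 2 and 3. In both, miR92a 3 was far above the other miR92a libraries, and scramble 3 was also above the other scramble libraries.

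Among genes averaging at least 10 CPM, the 5 with the largest difference between miR92a 3 and miR92a 2 all encode small subunit proteins; this was seen in the values and not tested. The log2 CPM was higher in miR92a 3 by 1.09 for RPS9, 0.71 for RPS29, 0.61 for RPS10, 0.52 for RPS12 and 0.47 for RPS20. Some of these genes were also higher in scramble 3 than in the mean of scramble 1 and 2. That log2 CPM difference was -0.15 for RPS9, 0.23 for RPS29, 0.03 for RPS10, 0.29 for RPS12 and 0.36 for RPS20. Of the low-count large subunit genes, RPL3L was higher in miR92a 3 by 0.66 and RPL39L was lower, with a difference of -0.48. Over the 79 genes with counts in every library the median ratio of the highest to the lowest library was 1.24, and 70 stayed under 1.5-fold. Without both replicate 3 libraries, in a blocked fit added after the counts were seen, 8 of the 80 were called (10.0%), against 9.76% of all tested genes. RPL15 was higher and 7 were lower, among them RPS9 at -0.72, RPS12 at -0.28, RPL29 at -0.27, RPL10 at -0.22, RPS25 at -0.21 and RPL3 at -0.18 (log2 fold changes). That fit had 4 libraries, and its share of ribosomal protein genes was close to the background. It kept scramble 1 and 2, which were more alike than either was to scramble 3.

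RPS2, at the mRNA entry, and RPS18, in the head, were the most abundant small subunit genes in CPM. RPS2 averaged 2282 ± 291 CPM in miR92a and 2464 ± 209 CPM in scramble (SD, n = 3 each). RPS18 averaged 1742 ± 142 CPM in miR92a and 1849 ± 69.1 CPM in scramble (SD, n = 3 each). RPSA, also known as the laminin receptor precursor, averaged 990.1 ± 96.2 CPM in miR92a and 1087 ± 135 CPM in scramble (SD, n = 3 each). RPS6, whose phosphorylation is the common readout of mTORC1 activity, averaged 1112 ± 37.9 CPM in miR92a and 1151 ± 40.6 CPM in scramble at the RNA level (SD, n = 3 each), a log2 fold change of -0.05 ± 0.08 (95% interval -0.23 to 0.13). RPS14, the gene lost in a deletion form of myelodysplastic syndrome, averaged 416 ± 18.8 CPM in miR92a and 413 ± 3.35 CPM in scramble (SD, n = 3 each), with an interval of -0.17 to 0.19.

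Diamond-Blackfan anaemia genes were taken as a list of 16. None passed on group alone, where 1.41% of all tested genes did, and 1 (RPL15, higher) passed with the block, where 11.3% of all did. Their median log2 fold change was -0.01, as in all tested genes. RPS19, the gene most often mutated in that disease, had 531, 642 and 775 CPM in miR92a 1, 2 and 3, against 661, 659 and 717 CPM in scramble 1, 2 and 3. Its lowest and highest values were both in the miR92a group, and the log2 fold change was -0.05 ± 0.13 (95% interval -0.35 to 0.25). RPS24 averaged 974 ± 104 CPM in miR92a and 971 ± 36.5 CPM in scramble (SD, n = 3 each). RPL35A averaged 349.7 ± 12.3 CPM in miR92a and 354 ± 18.6 CPM in scramble (SD, n = 3 each). RPS26 averaged 157 ± 20 CPM in miR92a and 158 ± 10.1 CPM in scramble (SD, n = 3 each).

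The 4 symbols with the suffix L are paralogs with restricted or divergent expression. RPL39L, a testis-enriched copy of RPL39 with 94.8% identical coding bases, had 6.8, 11.4 and 8.18 CPM in miR92a 1, 2 and 3, against 6.71, 7.78 and 5.57 CPM in scramble 1, 2 and 3. The log2 fold change of 0.49 ± 0.24 was the highest of all members, and the adjusted p was 0.42 (edgeR). It had 5 counts in miR92a 1, but the value was 0.55 without that library and 0.23 without miR92a 2. Its partner RPL39 had 363, 356 and 379 CPM in miR92a 1, 2 and 3, against 407, 363 and 398 CPM in scramble 1, 2 and 3. RPS27L, a p53-responsive copy of RPS27 with 77.8% identity, had 21.8, 26.8 and 25.5 CPM in miR92a 1, 2 and 3, against 31.2, 26.7 and 29.8 CPM in scramble 1, 2 and 3, and its log2 fold change was -0.20 ± 0.13 (adjusted p = 0.59, edgeR). RPS27 itself had 6.8, 10.9 and 11.7 CPM in miR92a 1, 2 and 3, against 11.5, 11.3 and 14.4 CPM in scramble 1, 2 and 3. RPL3L, the striated-muscle copy of RPL3 with 75.2% identity, had 0, 13 and 21 counts in miR92a 1, 2 and 3, against 14, 20 and 20 counts in scramble 1, 2 and 3. A count of 0 in miR92a 1 allows up to 4.08 CPM, which is above the level in the other libraries.

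Of the paralogs outside the naming rule, RPL22L1 had 10.9, 10.6 and 11.3 CPM in miR92a 1, 2 and 3, against 14.2, 12.9 and 14.3 CPM in scramble 1, 2 and 3. In mouse RPL22 represses this copy. The groups did not overlap, in the same direction as for RPL22, but neither passed the test (RPL22L1 log2 fold change -0.34 ± 0.15, adjusted p = 0.38, edgeR). RPL26L1, RPL36AL and RPL7L1 also did not pass. RPL7L1 averaged 361 ± 17.4 CPM in miR92a and 379 ± 25.4 CPM in scramble (SD, n = 3 each). RPL36AL averaged 75.6 ± 21.8 CPM in miR92a and 73.9 ± 3.34 CPM in scramble (SD, n = 3 each). FAU, which encodes a ribosomal protein fused to a ubiquitin-like protein, averaged 253 ± 24.7 CPM in miR92a and 248 ± 6.43 CPM in scramble (SD, n = 3 each). RACK1, the scaffold protein of the small subunit, averaged 841 ± 107 CPM in miR92a and 893 ± 36.9 CPM in scramble (SD, n = 3 each).

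Other translation genes with TOP mRNAs gave a clear exception. EEF1G, a subunit of the elongation factor complex that recharges EEF1A1, had 1069, 1222 and 1069 CPM in miR92a 1, 2 and 3, against 2334, 2338 and 2272 CPM in scramble 1, 2 and 3. It fell in every miR92a library, with no overlap between the groups and a log2 fold change of -1.05 ± 0.09 (adjusted p = 0.002, edgeR). It was the only 1 of the 18 TOP translation factors called on group alone (1.41% of all tested genes), and the median log2 fold change of the 18 was -0.07. With the block, which called 11.3% of all tested genes, 4 were called, all lower: EEF1G, EEF1A1, PABPC1 and EIF3L. Of these only EEF1G was still called in the block without both replicate 1 libraries, and only EEF1G and EIF3L without both replicate 2 libraries. EEF1A1, whose start is shown above, had 15763, 17419 and 17996 CPM in miR92a 1, 2 and 3, against 19817, 19523 and 22401 CPM in scramble 1, 2 and 3, a log2 fold change of -0.27 ± 0.07 with an adjusted p of 0.013 in the blocked edgeR fit and 0.28 without the block. For PABPC1, the poly(A)-binding protein, the values were -0.23 ± 0.07 and 0.039 with the block, and an adjusted p of 0.32 without it (edgeR). For EIF3L, an initiation factor subunit, they were -0.36 ± 0.08 and 0.0047 with the block, and 0.12 without it (edgeR). EEF2, the translocation factor, averaged 3303 ± 130.4 CPM in miR92a and 3560.2 ± 199 CPM in scramble (SD, n = 3 each) and was not called. Whether this list differs from the ribosomal protein genes was not tested.

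The genes that control TOP mRNAs or handle ribosomal proteins were called only with the block, whose background is 11.3%. Of 13 tested genes of the mTORC1 pathway and its TOP-binding effectors, 1 was higher, RPTOR, the scaffold of mTORC1, with 83, 76.4 and 95.4 CPM in miR92a 1, 2 and 3, against 60.3, 59.9 and 53 CPM in scramble 1, 2 and 3 and a log2 fold change of 0.57 ± 0.11 (adjusted p = 0.0013 with the block and 0.066 without it, edgeR). LARP1, which binds the TOP tract, averaged 370.1 ± 17 CPM in miR92a and 410.3 ± 4.39 CPM in scramble (SD, n = 3 each) and was not called. Of 11 ribosomal protein chaperones and import factors 2 were higher with the block. GRWD1, whose yeast counterpart is a chaperone of the RPL3 protein, had 61.2, 71.1 and 72.8 CPM in miR92a 1, 2 and 3, against 47.5, 47.9 and 34.5 CPM in scramble 1, 2 and 3, with a blocked log2 fold change of 0.74 ± 0.12 (adjusted p = 0.00033, and 0.075 without the block, edgeR). BCCIP, whose yeast counterpart is a chaperone of the RPL23 protein, had 119.7, 113 and 111 CPM in miR92a 1, 2 and 3, against 87.9, 86.5 and 75.5 CPM in scramble 1, 2 and 3, with a blocked log2 fold change of 0.47 ± 0.09 (adjusted p = 0.0014, and 0.075 without the block, edgeR). RPL3 and RPL23 had values below scramble in miR92a, given above, without passing on group alone or with the block on all libraries. RPL3 was called in the block without both replicate 3 libraries (log2 fold change -0.18, adjusted p = 0.046, edgeR). Of 7 assembly and quality-control genes RRS1, which in yeast helps to load the 5S particle, was higher with the block (adjusted p = 0.045, edgeR; 0.15 and 0.39 without both replicate 2 or both replicate 3 libraries), and of 7 transcription factors reported at ribosomal protein promoters TBP was (adjusted p = 0.002, edgeR). MYC, an activator of ribosomal protein transcription, averaged 417 ± 35.6 CPM in miR92a and 404 ± 79.7 CPM in scramble (SD, n = 3 each).

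Sites for the mimic's seed were sought on the transcript strand of annotated 3′ UTRs (GENCODE v29). A site was the reverse complement of the seed, CCCAACC, or that of its first 6 bases followed by an A, which reads CCAACCA; where both overlap they were counted once. With the longest UTR of each gene, 8 of 80 ribosomal protein genes (10%) had a site, against 16.8% of 12934 genes. With the shortest principal transcript, 3 of 79 (3.80%) had one, RPL13, RPS23 and RPS25, against 13.8% of 12636 genes. The UTRs are also shorter, with a median of 66 bases against 910 in that annotation choice. The sites of these 3 genes are shown with 11 bases on each side and the match in capitals.
RPL13 (chr16:89563720-89563726, plus strand): gagaccctgcaCCCAACCtagagttgcct
RPS23 (chr5:82274074-82274080, minus strand): aacaaaggaacCCCAACCttacatgtaat
RPS25 (chr11:119015750-119015756, minus strand): catgaataggtCCAACCAgctgtacattt
In the longest annotated UTRs, the RPL13 match begins at base 678 of 3786 and the RPS23 match at base 2029 of 2751. The RPS25 match begins at base 7 of a 51-base UTR. Whether these cells use the long UTRs of RPL13 and RPS23 was not tested. RPS25, a protein needed for some internal ribosome entry sites, had 537, 586 and 729 CPM in miR92a 1, 2 and 3, against 675, 641 and 710.3 CPM in scramble 1, 2 and 3. Its log2 fold change was -0.12 ± 0.12 (adjusted p = 0.75, edgeR). For RPL13 the fold change was above 0, and for RPS23, at the decoding centre, it was -0.05 ± 0.09 (adjusted p = 0.88, edgeR). The median log2 fold change was -0.02 over the 8 genes with a site in the longest UTR and -0.03 over those without. With the shortest principal transcript it was -0.05 over the 3 genes with a site and -0.03 over those without, and neither difference was tested. Matches to the miR-92a-3p seed were found in the longest UTRs of 8 genes (10%), against 20.03% of genes.

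Levels were compared between genes per base of coding sequence, as counts per coding length scaled to a total of 1000000 per library and averaged over the 6 libraries. The median was 1283 and the quartiles 907 and 1746, and the ranked plot shows each gene. The quartiles were further apart with other lengths. With the longest transcript they were 474 and 1980 around a median of 1049. With the shortest principal transcript they were 935 and 2905 around a median of 1974. RPL41, which encodes the shortest ribosomal protein, stood highest at 1210% of the median with coding length, but at 341% with the length of its shortest principal transcript. RPS18, RPL13A and RPLP1 followed with coding length.

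At the bottom 8 genes lay under 10% of the median, and these were the same 8 with the shortest principal transcript. RPL39L and RPL3L are paralogs with tissue-restricted expression, and RPS27L is the p53-responsive paralog. The others encode core proteins of the ribosome, among them RPS27 at 3.16% of the median, RPL26 at 2.63%, RPS7 at 3.58% and RPS10 at 3.92%. The next member up was RPS26, at 32.8%. The low level was present in every library: RPL26 had 13.6, 15.8 and 16.1 CPM in miR92a 1, 2 and 3, against 17.5, 17.6 and 14.6 CPM in scramble 1, 2 and 3. Annotated pseudogene rows made up 10.9% of the sum of gene and pseudogene counts for RPS7, 3.77% for RPL26, and under 1% for RPS27 and RPS10. How the counting treated these genes was not tested, and their levels are uncertain.

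**Figure D4:**
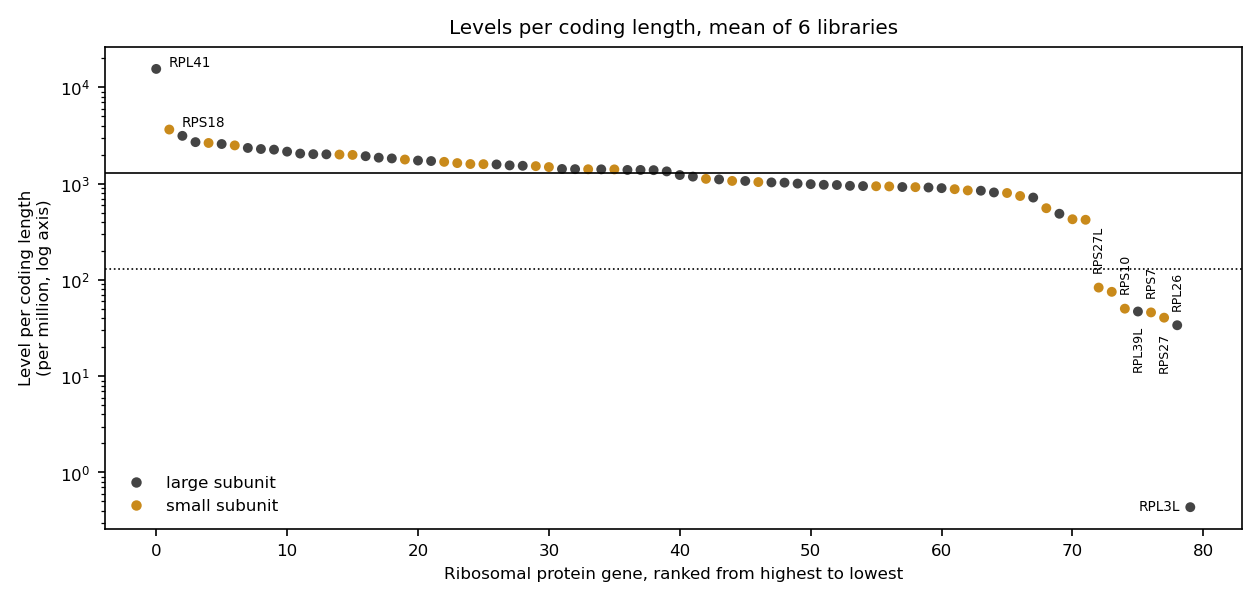
Level per coding length (log axis, counts per coding base scaled to a total of 1000000 per library, mean of 6 libraries) of the 80 tested ribosomal protein genes, ranked from highest to lowest, large subunit grey and small subunit ochre. The solid line is the median and the dotted line 10% of it; 8 genes fall below the dotted line with a gap to the rest, and those named in the text carry a label.

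Ribosomal protein genes have many processed pseudogenes, and 1028 rows of the table carried pseudogene symbols of these members. Together they held 1.80% of the summed counts of genes and pseudogenes. For 73 genes the share was under 1%. It exceeded 10% for RPL23A (63.6%), RPL9 (32.9%) and RPS7 (10.9%), whose values are therefore uncertain. RPL23A, at the mouth of the exit tunnel, averaged 295 ± 29.6 CPM in miR92a and 316 ± 5.78 CPM in scramble (SD, n = 3 each). RPL9, also of the large subunit, averaged 639 ± 21 CPM in miR92a and 639 ± 17.9 CPM in scramble (SD, n = 3 each). Adding the pseudogene rows to their genes left 0 of the 80 called on group alone.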

How the data were processed

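RNA was measured in 6 K562 libraries, 3 miR92a and 3 scramble, grouped by their titles. The values are expected counts per gene symbol, which the authors made with kallisto and deposited as whole numbers. GRCh38 is the build in the submitters' processing notes. The kallisto version, transcript annotation, library strand and gene-level step are not given in the sources used here, so near-identical copies, overlapping and antisense genes cannot be told apart fully. No replicate label says whether cultures were separate beyond "biological", so p-values measure the spread between these libraries.

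Counts were filtered (filterByExpr), scaled by TMM and tested in R 4.3.3 with edgeR 4.0.16's quasi-likelihood test on group alone, over 14543 genes, with Benjamini-Hochberg adjustment at 0.05. Standard errors were taken from the F statistic, and CPM use the TMM factors. Alternatives were other scalings and filters, thinning, added pseudogene rows, DESeq2 1.42.0, limma-voom (limma 3.58.1), each library left out, and the replicate number as a block. Same-numbered libraries correlated in their deviations from group means at 0.37, 0.48 and 0.63 over 4829 abundant genes, each over 0.1, so blocked values are given; scramble 1 correlated more with miR92a 2 (0.52). No pair of libraries within a group agreed within sampling noise (chi-square per gene 1.81 to 48.4). In scramble the value was 4.83 for 1 against 2, 48.4 for 1 against 3 and 43.0 for 2 against 3. In miR92a it was 1.81 for 1 against 2, 4.65 for 1 against 3 and 43.8 for 2 against 3. The values with the shallow library miR92a 1 also reflect its few counts. Fits were tested on simulated counts. Lengths, coordinates and UTRs are from GENCODE v29, promoters and microRNAs from RefSeq (GRCh38.p14); sequence steps used Python 3.11.15.

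The members and gene lists were chosen with earlier results of these data known. Members named by rule were any called in either fit, the 6 highest and 6 lowest fold changes at a mean of 10 CPM or more, the 6 most and 3 least abundant, and those with suffix L; of other lists, up to 4 called genes. Further members were named from the role lists or after their values were seen. Depth ranged from 0.704 to 25.98 M counts; a count of 0 allows 4.08 CPM in miR92a 1 and 0.115 to 0.125 CPM elsewhere (3 counts). Wilson intervals and floors cover counting error only; intervals of fold changes come from the edgeR fit and include the spread between libraries. A few genes are counted in the totals and lists but not reported here by name.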

Additional observations from a re-analysis of the deposited data

How the results depend on the processing

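No ribosomal protein gene was called under any other scaling or filter, after thinning, with DESeq2 or limma-voom, with pseudogene rows added, or with any library left out. With the replicate block 1 was called higher (also 1 with pseudogene rows added), and without both replicate 3 libraries 1 higher and 7 lower; these fits, apart from the block on all libraries, were added after seeing the data. All genes called were 205 in the fit on group alone, 388 with DESeq2, 119 after thinning, 70 to 201 with a library left out (77, 80 and 129 without miR92a 1, 2 and 3, 72 and 70 without scramble 1 and 2), 1639 with the replicate block, 1641 with pseudogene rows and the block, and 1237, 834 and 1420 in the block without replicates 1, 2 and 3. TOP translation factors called were 1 on group alone, 4 with the block, with or without pseudogene rows, 1, 2 and 4 in the block without replicates 1, 2 and 3, and 1 otherwise. The median log2 fold change of the small subunit genes was -0.14 without miR92a 3 and 0.033 without miR92a 1, the range over left-out libraries. The summed share's log2 difference lay between -0.060 and 0.0029 with a library left out, above 0 only without miR92a 1; paired by replicate number its exact p was 0.75. The genes under 10% of the median level were 9 with the longest transcript and 8 with coding length. Of 376 other values for the named genes over 20 settings, 360 kept their sign, stayed uncalled and lay within 1 SE of the value reported, 5 kept their sign but moved further, 6 changed sign and 5 passed the threshold; all 5 were blocked fits, for RPL15, RPL29 and RPL3. Those that changed sign were RPL3L (0.083) and RPL8 (-0.032) without miR92a 2, RPS29 without miR92a 3 (-0.23), RPL8 without scramble 3 (-0.069), and RPL8 (-0.035) and RPS29 (-0.12) in the block without replicate 3, none of them called. Over the left-out libraries RPL8 lay between -0.069 and 0.058 and RPS29 between -0.23 and 0.24. With single libraries left out, 35 of 114 values moved by over 1.5 times with the same sign, in 13 genes, among them RPS27 at -0.074 without scramble 3, RPL3L at -0.63 without miR92a 3 and RPS2 at -0.018 without miR92a 1. The cause of these changes was not tested. Values of RPL39L, RPL3L and RPS27 are limited by counts below 10 in miR92a 1.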
